A study of Cervus nippon with 4 samples.

Results

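In the longissimus dorsi muscle of sika deer, 28 abundant transcripts met a rule for a gradual fall over 4 ages from youngest to oldest. The fall was unequal from step to step, with a median ratio of 2.43 between the largest and the smallest log2 step of a member. The steps span 2, 2 and 5 years. The 28 were found among 326981 gene models listed in the deposited tables, of which 5544 reached 15 FPKM (fragments scaled to transcript length and to the library's total) in at least 1 library. They were selected on the measured values themselves. FPKM + 0.1 had to be at least 1.2-fold lower at each of the 3 steps from Msc_1 to Msc_4, and Msc_1 could not exceed 2 times Msc_2. The falls below are therefore a description of the chosen gene models, and no test was applied to them.

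The deer were Shuangyang Sika deer. Msc_1 is the juvenile library (1 year), Msc_2 that of adolescence (3 years), Msc_3 the adult library (5 years) and Msc_4 the aged library (10 years). The deer were fasted before slaughter, no treatment is named, and the sources used here do not give their sex. Each library was made from 1 pool of 3 deer, and the variation between deer of the same age is unknown. Summed FPKM ranged from 761348 in Msc_1 to 825006 in Msc_3, read counts and transcript lengths were not analysed here, and the depth behind each value is therefore unknown.

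Skeletal muscle RNA is dominated by transcripts for contractile proteins, for energy metabolism and for mitochondrial proteins, made inside the muscle fibres. A piece of back muscle also holds connective tissue, vessels, blood, nerve and satellite cells, and the growth of the fibres and the turnover of their matrix change between youth and old age. The files pair no gene model with a gene name, and the unigene lists and networks of the study use identifiers of another form, so the muscle label was not checked against marker genes and no function can be given here for any member. In whole tissue, fewer cells of a type and less RNA per cell cannot be told apart.

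The members were moderately abundant. In Msc_1 their FPKM ranged from 15.83 to 212.28 with a median of 21.83. The median was 13.88 at 3 years, 9.45 at 5 years and 5.38 at 10 years, while that of all 5544 abundant gene models was 22.59, 21.74, 23.89 and 22.56. The highest value was in Msc_1 for every member, as the rule requires, and it lay under 30 FPKM for 20 members, between 30 and 60 for 5 and above 60 for 3. Together the 28 held 0.130%, 0.0878%, 0.0540% and 0.0323% of the summed FPKM from Msc_1 to Msc_4. All 28 stood at 15 FPKM or more at 1 year, 13 at 3 years, 5 at 5 years and 5 at 10 years. In Msc_4 1 member was not listed, and the other 27 were listed in all 4 libraries.

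**Figure D1:**
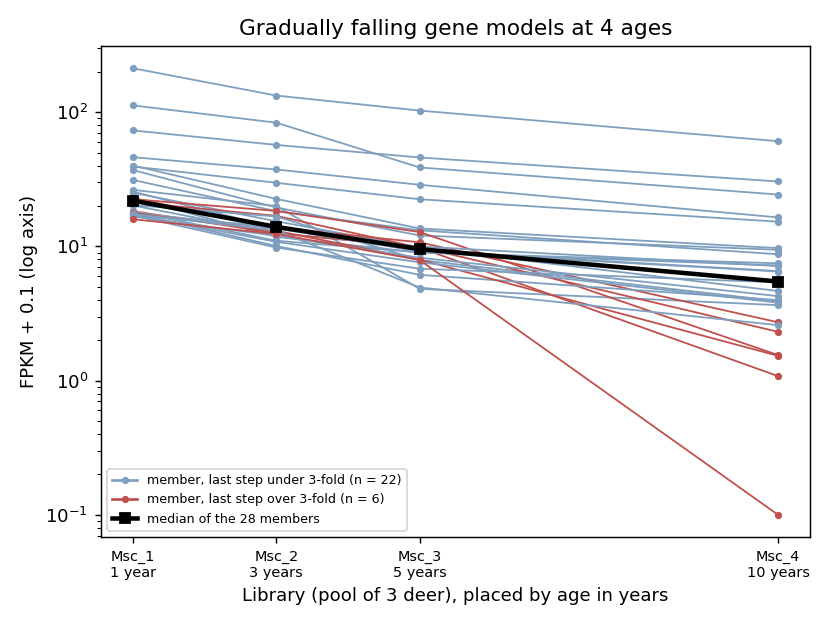
FPKM + 0.1 of the 28 members (log axis) in the 4 libraries, each a pool of 3 deer, placed by age in years; thin lines are gene models and the thick line is their median. All lines go down at each step, and 6 members drawn in red fall from between 7.81 and 12.69 FPKM at 5 years to 2.62 FPKM or less at 10 years.

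The most abundant member was c639559_g2, with 212.28 FPKM at 1 year, 132.85 at 3 years, 102.66 at 5 years and 60.66 at 10 years. It was the only member above 60 FPKM in the oldest deer. From Msc_1 to Msc_4 it became 3.50-fold lower, and its place among the abundant gene models went from 352 to 1102. Next came c650358_g6, with 112.2, 83.37, 38.62 and 24.24 FPKM at the same ages. It had the largest fall of the 3 members above 60 FPKM, 4.61-fold, with the step from 3 to 5 years (2.16-fold) larger than those before (1.35-fold) and after it (1.59-fold).

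The other abundant members are given by rank. The third in Msc_1 had 73.01, 56.93, 45.86 and 30.36 FPKM in Msc_1 to Msc_4, the smallest fall of all members (2.40-fold). The fourth had 46.09, 37.32, 28.67 and 16.34 FPKM, and the fifth had 39.89, 22.48, 13.5 and 9.61 FPKM. The sixth had 39.3, 29.67, 22.34 and 15.18 FPKM. In these 4 the loss was spread over all steps. Measured as fold per step, it was largest between 1 and 3 years in the fifth and between 5 and 10 years in the other 3.

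The seventh to the tenth began lower and ended under 10 FPKM. The seventh had 36.91, 19.38, 11.96 and 9.33 FPKM, and the eighth had 31.15, 18.2, 13.07 and 8.64 FPKM. The tenth had 25.5, 13.56, 9.11 and 6.4 FPKM. These 3 lost most in the first step (1.90-fold, 1.71-fold and 1.87-fold), where the rule allows no more than 2-fold. The ninth took another course, with 26.28 and 19.87 FPKM in the younger deer and 4.73 and 3.55 in the older deer. Its fall from Msc_2 to Msc_3 was 4.13-fold, the largest of any member at that step.

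The remaining 18 members had between 15.83 and 25 FPKM in Msc_1 and between 0 and 7.38 in Msc_4. Those with the 5 largest falls over the whole span all belonged here. The member with the largest fall had 15.83, 12.29 and 7.81 FPKM in Msc_1 to Msc_3 and was not listed in Msc_4, so no fold is given. The next had 21.28, 16.79, 9.68 and 0.98 FPKM, a 19.8-fold fall on FPKM + 0.1. It was followed by a member with 22.38, 18.27, 12.69 and 1.45 FPKM (14.5-fold). In all of these the first 2 steps were below 2-fold, and most of the log2 fall came between 5 and 10 years.
The fourth and the fifth by size of fall had the same course. The former had 17.55, 12.97, 7.87 and 1.43 FPKM and the latter had 22.8, 13.75, 10.62 and 2.62 FPKM. A sixth member of this kind had 18.2, 12.44, 9.79 and 2.21 FPKM. In these 6 the step from Msc_3 to Msc_4 was 3.94-fold or more, or ended in no listed value, and in the other 22 it lay between 1.2-fold and 2.1-fold.

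The size of the steps was compared next, as changes in log2(FPKM + 0.1). The median member changed by -0.51 from Msc_1 to Msc_2 (quartiles -0.74 and -0.39), by -0.55 from Msc_2 to Msc_3 (-0.71 and -0.39) and by -0.70 from Msc_3 to Msc_4 (-1.03 and -0.50). The medians of the 5544 abundant gene models were -0.06, 0.11 and -0.05 at these steps. The middle one moved to -0.08 under upper-quartile scaling. Relative to the abundant gene models, the member medians were -0.46, -0.66 and -0.65. The last step was the largest for 14 members, the first for 9 and the middle for 5. The ages are not evenly spaced. Per year, the median change was -0.26 in the first 2 years, -0.27 in the next 2 and -0.14 over the last 5. By this measure the first step was the largest for 13 members, the middle for 9 and the last for 6. The order of the steps thus depends on whether a step or a year is counted, and the limit on the first step also bears on it.

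**Figure D2:**
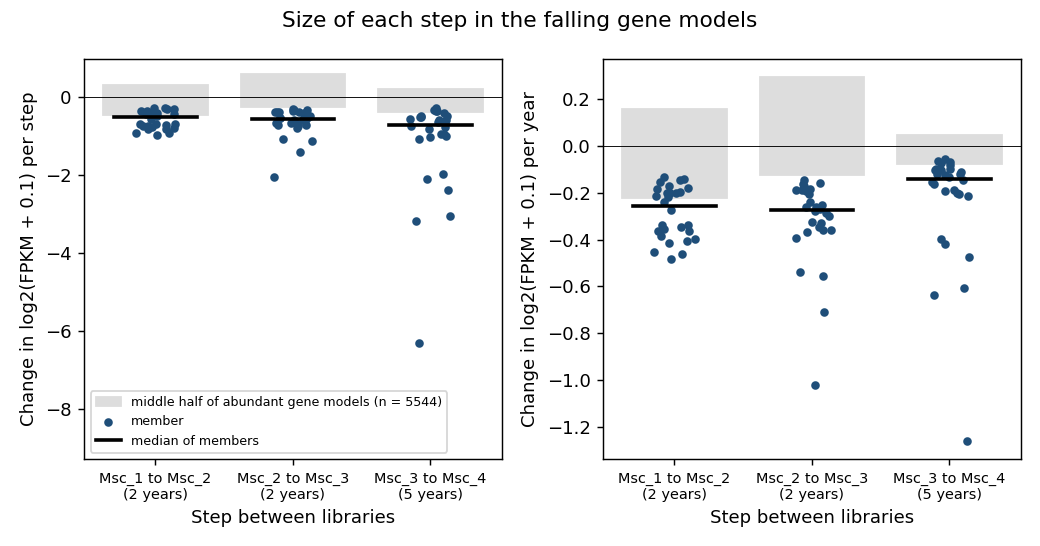
Change in log2(FPKM + 0.1) of the 28 members (points, with their median as a bar) at each step between libraries, per step on the left and per year on the right; grey boxes span the quartiles of the 5544 abundant gene models. The member medians are -0.51, -0.55 and -0.70 per step and -0.26, -0.27 and -0.14 per year.

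Evenness was measured per step, though the steps span 2, 2 and 5 years. An even loss per year would give a larger last step, so a low ratio is not an even yearly rate. The ratio of the largest to the smallest log2 step of a member had a median of 2.43, and it was 2 or less for 10 members. The most even member per step had 17.59, 9.97, 6.04 and 3.88 FPKM, with steps of 1.76-fold, 1.64-fold and 1.54-fold. The sixth most abundant, described above, came next with a ratio of 1.37. In 7 members more than 50% of the whole log2 fall came in the last step, which covers 5 of the 9 years.

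Differences of more than 2-fold were counted between pairs of libraries, with no replicate check. In Msc_4 vs. Msc_1 all 28 members were lower by more than 2-fold, against 8.39% of the abundant gene models. In Msc_3 vs. Msc_1 there were 21 members (7.05% of the abundant gene models), and in Msc_4 vs. Msc_2 there were 22 (4.42%). At single steps there were 8 members in Msc_4 vs. Msc_3 (5.07%), 4 in Msc_3 vs. Msc_2 (3.93%) and 0 in Msc_2 vs. Msc_1 (8.62%), where the limit on the first step leaves no room for a call. These pairs are the ones that chose the members, so nothing is read from the shares, and comparisons that share a library are not independent. In the median member Msc_4 was 4.03-fold below Msc_1.

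**Figure D3:**
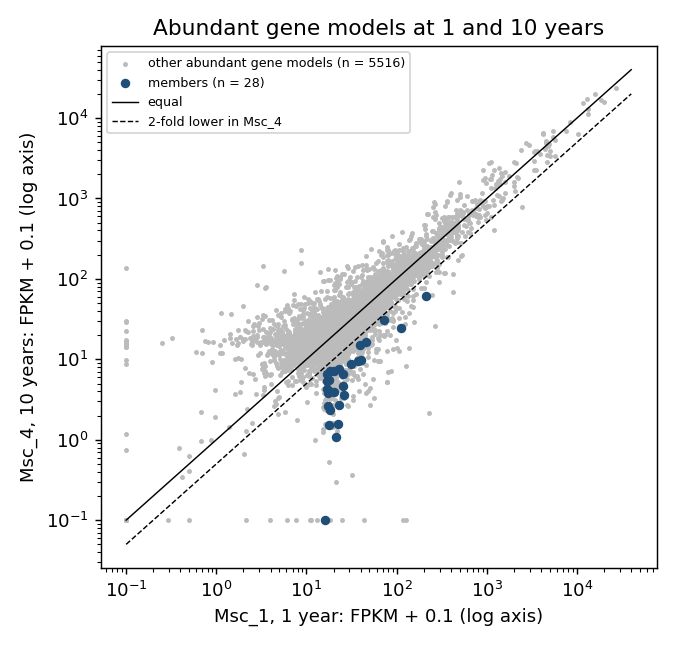
FPKM + 0.1 in Msc_1 (horizontal) and in Msc_4 (vertical) on log axes for the 28 members and the other 5516 abundant gene models; the lines mark equal values and a 2-fold fall. All members lie below the 2-fold line, from 212.28 and 60.66 FPKM at the upper end to a member that is not listed in Msc_4.

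Few abundant gene models changed by at least 1.2-fold in the same direction at all 3 steps. Of the 5544, 2002 were at least 1.2-fold lower in Msc_2 than in Msc_1. Of these, 237 fell by at least 1.2-fold again to Msc_3, and 38 did so to Msc_4 as well. The limit on the first step left out 10 of these 38. In the opposite direction 1554 rose by at least 1.2-fold at the first step, 406 also at the second and 74 at all 3. Of the 74, 43 met the mirrored rule (Msc_2 not above 2 times Msc_1). With steps of any size and the limit on the first step kept, 294 fell and 281 rose at all 3. Neighbouring steps share a library and are not independent. The median of the 43 rising gene models went from 11.95 FPKM in Msc_1 to 15.61, 28.75 and 41.74 in the older libraries.
Which list was longer depended on how the libraries were scaled. With the trimmed mean of M-values as scale, 34 gene models fell and 30 rose. With median-of-ratios scaling 32 fell and 30 rose, and with upper-quartile scaling 37 fell and 27 rose. The falling share of both lists was 39.4% unscaled and between 51.6% and 57.8% scaled. All 28 members were lower at each step under each of the 3 scalings. This follows from the rule, because each step was at least 1.2-fold and the scale factors lay only between 0.9284 and 1.0564. Only 23, 24 and 20 of the members still met the rule, in the order of the scalings above.

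**Figure D4:**
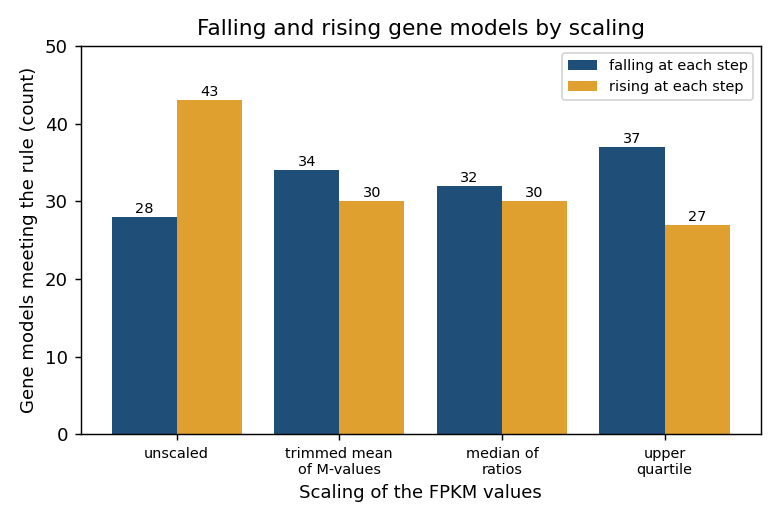
Number of abundant gene models that met the falling rule and its rising mirror image, with FPKM as deposited and after 3 scalings. The falling list has 28 gene models unscaled and 32 to 37 scaled, and the rising list has 43 unscaled and 27 to 30 scaled.

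Members stood close to the limits of the rule. The lowest highest value among them was 15.83 FPKM, and the nearest gene model outside had 14.98 FPKM in Msc_1, then 11.08, 9.12 and 4.89. The smallest step inside was 1.2-fold, from 16.85 to 14.01 FPKM between Msc_1 and Msc_2. Just outside was a gene model with 16.3, 12.97, 10.93 and 9.2 FPKM, whose smallest step was 1.185-fold. The highest ratio of Msc_1 to Msc_2 inside was 1.96, in a member with 22.92, 11.67, 8.9 and 7.38 FPKM. The nearest outside was 2.01, with 54.73, 27.27, 21.75 and 5.59 FPKM.

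The identifiers give a property that the rule did not use. Each consists of a component number, read here as a group of transcripts that an assembly joins by shared sequence, and a gene number within it. The 28 members belonged to 28 different components. For 14 members (50%) no other gene model of the component was listed, against 30.6% of all abundant gene models. Another gene model above 0.3 FPKM was present for 12 members, 27 in all. Most of these 27 were low, with 20 under 5 FPKM in every library and 4 at 15 FPKM or more. Their reads may be shared with the member, since the sources used here do not say how reads that match several gene models were divided.

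Of these 27 gene models, 20 (74.1%) were lower in Msc_4 than in Msc_1, 6 were higher and 1 was absent from both. For the other 5516 abundant gene models the share of lower neighbours in the component was 40.2% of 6257 pairs. These 5516 were not chosen for a fall, and for the 43 rising ones among them the share was 19.6% of 51 pairs. No share was computed for other falling abundant gene models, so the 74.1% cannot be called particular to the members. At least 1 neighbour was lower for 10 of the 12 members (83.3%), against 57.1% of the 3134 other abundant gene models with a neighbour. With neighbours above 1 FPKM it was 6 of 8 members (75%), against 53.8% of 2495. These shares rest on few members, gene models of a component are not independent, and the difference was not tested.

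**Figure D5:**
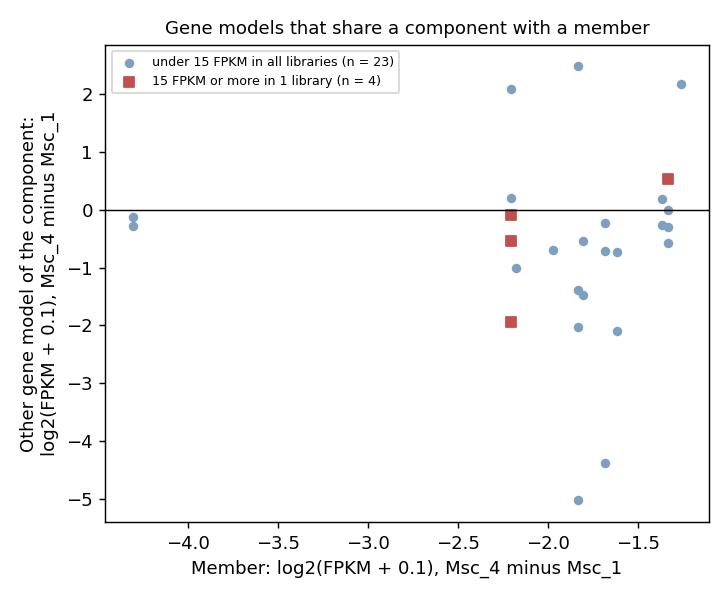
Change in log2(FPKM + 0.1) from Msc_1 to Msc_4 of the 27 other gene models in the components of 12 members (vertical) against that of the member (horizontal). Of the 27, 20 lie below the zero line, and of the 4 at 15 FPKM or more (squares) 3 lie below it.

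With the member itself left out, the summed FPKM of the component was lower in Msc_4 than in Msc_1 for 9 of the 12 and higher for 3, with a median log2 change of -0.53. For the 3134 other abundant gene models the rest of the component was lower in 44.1%, with a median of 0.08. This difference was not tested either, and the 3134 were not chosen for a fall. The component of c639559_g2 consisted almost wholly of that member, which held 99.3% of its FPKM in Msc_1. That of c650358_g6 held 11 gene models with 319.28, 221.3, 267.22 and 186.9 FPKM in all, of which the member gave 35.1% in Msc_1. In that component another gene model fell with it at each step (17.72, 12.72, 10.82 and 4.52 FPKM), while 2 of similar abundance did not, with 100.77, 70.99, 116.1 and 95.22 FPKM and with 86.15, 52.82, 99.87 and 59.34 FPKM.
In another component the gene models moved in opposite directions. The member had 18.1, 10.92, 8.93 and 7.11 FPKM, and its neighbour rose at each step with 17.29, 20.13, 23.82 and 25.17 FPKM. Their component as a whole had 37.05, 31.63, 37.05 and 33.39 FPKM, with no steady fall. For this member a lower level of its gene and a changed share between gene models of the component cannot be told apart.

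The lowest values have a coarse grain. Among gene models listed in 1 library only, the highest FPKM shared by 20 or more of them was 3.87, 3.77, 5.2 and 5.41 from Msc_1 to Msc_4. Such a repeated value is taken as what 1 fragment is worth on the shortest gene models. The member with 15.83 FPKM in Msc_1 stood at 4.09 times this value and c639559_g2 at 54.9 times. At or below it were 0 members in Msc_1 and Msc_2, 2 in Msc_3 and 14 in Msc_4. These 14 include the 6 members with a steep last step, all at 2.62 FPKM or less in Msc_4, and also members without one. Which members are that short is not known, and the part of counting error in their steps was not tested.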

How the data were processed

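Longissimus dorsi mRNA of 4 libraries, each a pool of 3 deer, was prepared with a TruSeq kit and sequenced on a HiSeq2500. After filtering of adaptors and poor reads, the authors deposited 1 table per library with FPKM per gene model, rounded to 2 decimals, with a lowest value of 0.01. The submitters' processing notes name Bowtie 0.12.2 without its role. The assembler, the counting program and the transcript lengths were not given in the sources used here.

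Tables were joined on the identifier in Python 3.11.15 (pandas 2.3.3, numpy 2.4.6), and an unlisted value was set to 0. Steps were computed on log2(FPKM + 0.1), which understates the change of low values. No test was run, because 1 library per age leaves no replicate and the members were selected on the same values. The study's DEGseq comparison needs read counts. Scalings (by the trimmed mean of M-values with 30% of M and 5% of A trimmed at each end, by the median of ratios, and by the upper quartile of gene models listed in all 4 libraries) were computed on FPKM as alternatives. The code for the rule and the scalings was checked on simulated data with planted changes. The noise was small for the rule, so this does not measure the error in the deposited values.

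The members and the choices of what to count were made with earlier results of these data known. Because the files hold no gene names, 2 members are named: the highest in Msc_1, and the one with the largest fall among members of at least 60 FPKM. Up to 10 members by FPKM in Msc_1 and 5 by size of fall are given by rank. Members outside these ranks (the most even, the sixth with a steep last step, those nearest the limits and the one with a rising neighbour) were chosen after their values were seen.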

Additional observations from a re-analysis of the deposited data

How the results depend on the processing

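No paired analysis was possible because there is 1 library per age, and for the same reason no replicate could be left out. The number of falling gene models was 28 unscaled and between 32 and 37 under the 3 scalings. With a pseudocount of 1 FPKM it was 26, and with no limit on the first step it was 38. This number moved much further with the FPKM minimum and the size required of each step. It was 3 with at least 60 FPKM, 441 with no minimum beyond 0.3 FPKM, 294 with any step down and 2 when each step had to reach 1.5-fold. The rising list had 15, 474, 281 and 6 gene models at these settings, 74 with no limit on the first step and 27 under upper-quartile scaling. The median log2 changes of the members at the first, middle and last step and over the whole span were -0.42, -0.64, -0.75 and -2.06 with M-value scaling (trimmed mean), -0.44, -0.63, -0.74 and -2.05 under median-of-ratios scaling, -0.41, -0.73, -0.65 and -2.04 under upper-quartile scaling and -0.48, -0.51, -0.65 and -1.90 with a pseudocount of 1 FPKM. The last step was thus not the largest in the median under upper-quartile scaling. All 28 members stayed more than 2-fold lower in Msc_4 than in Msc_1 under these 4 settings. The 3 scalings could not change this, because each divides Msc_4 by a larger factor than Msc_1. Without the 10 most abundant gene models of each library the members held 0.162%, 0.113%, 0.0670% and 0.0399% of the summed FPKM. With neighbours in the component above 1 FPKM, 6 of 8 members (75%) had a lower one, against 10 of 12 (83.3%) above 0.3 FPKM, and for other abundant gene models the shares were 53.8% and 57.1%. Stricter thresholds leave fewer gene models by construction, and the cause of the other shifts was not tested. The number of fragments behind low values is unknown.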

Other observations

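The 10 gene models that fell by at least 1.2-fold at each step but by more than 2-fold at the first were left out by the rule. Their median was 42.75, 11.63, 7.09 and 5.37 FPKM from Msc_1 to Msc_4. Single values ranged from 19.42 to 100.81 FPKM in Msc_1 and from 0 to 13.83 in Msc_4. The highest of them had 100.81, 37.24, 23.6 and 13.83 FPKM. The one with the largest first step, 34.3-fold, had 31.87 FPKM in Msc_1 and 0.93, 0.5 and 0.26 in the older libraries. Another had the largest fall over the whole span, with 43.06, 5.84, 2.0 and 0 FPKM from Msc_1 to Msc_4. These values are given without a test.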
